A study of Arabidopsis thaliana with 9 samples.

Results

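Cpn60beta2, CLPP4 and CCS are nuclear genes whose proteins serve protein quality and superoxide defence in the plastid. They are 3 genes of the 13356 that had 1 gene name in the platform's probe-to-gene table. All were found there by symbol, and each had 1 probe set, the group of probes that reports a transcript on an Affymetrix array. Cpn60beta2 (AT3G13470) encodes a beta subunit of the plastid chaperonin, CLPP4 (AT5G45390) a proteolytic subunit of the plastid Clp protease, and CCS (AT1G12520) the copper chaperone of superoxide dismutase. The 3 were chosen by symbol with earlier results of these arrays in view, and the values behind that choice were their log2 differences between the groups. Their levels and differences are therefore described without a test.

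The plastid chaperonin is a barrel of alpha and beta subunits that encloses unfolded proteins, with co-chaperonins as its lids. It is best known for folding the large subunit of Rubisco. The Clp protease degrades proteins of the stroma. Its core holds proteolytic ClpP and inactive ClpR subunits, of which ClpP1 is made from the plastid genome and the others from the nucleus, and Hsp100 unfoldases feed it. Superoxide formed by the photosynthetic electron chain is removed by superoxide dismutases, and CCS loads copper into the copper/zinc type. The hydrogen peroxide that results is removed by ascorbate peroxidases and peroxiredoxins.

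RNA came from the above-ground parts of Arabidopsis thaliana of the Col-0 background, 8 weeks old and grown in a greenhouse with 12 hours of light and 12 hours of dark. The titles name Col-0 for the wild-type and variegated arrays and leave it out for the stunted arrays. The 9 arrays fall into 3 groups of 3 biological replicates. The groups are wild type, an msh1 RNAi transgenic line that was variegated and an msh1 RNAi transgenic line that was stunted, where RNAi is suppression of a gene by RNA interference. MSH1 is a nuclear gene for a MutS homologue of mitochondria and plastids. The variegated and stunted groups carry the same kind of transgene and differ by phenotype, and the labels give neither its promoter nor the number of independent lines. MSH1 transcripts were not analysed here. The arrays are called W1 to W3 (wild type), V1 to V3 (variegated) and S1 to S3 (stunted), after their replicate numbers.

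Values are log2 expression values normalized by the authors, so a difference of 1 is a doubling. Array medians lay between 3.37 and 3.43 and upper quartiles between 5.15 and 5.27. All 27 values of the 3 genes, from 6.65 to 9.45, lay above the upper quartile of their array. Rubisco activase (RCA), the 1 leaf marker of 5 that was measured, was at 12.52 to 13.02 on the 9 arrays. Of 5 root markers 3 were measured, and PYK10, a beta-glucosidase known from roots, rose in stunted plants by 1.50 (SE 0.15, limma adjusted p = 0.000875), from 4.01 to 4.45 in wild type to 5.51 to 5.98. The root markers EXPA7 and AT5G66390 stayed between 2.44 and 3.22 on every array, and the guard cell marker FMA between 3.68 and 3.93. Flower and seed markers were not analysed here. In variegated plants PYK10 was at 3.78 to 4.09. The summed level of the 3 root markers was 4.81 to 5.12 in wild type, 4.87 to 4.98 in variegated and 5.88 to 6.24 in stunted plants (log2 of the sum). PYK10 was the highest of the 3 on every array, so the rise of the sum is that of PYK10. The part of root tissue in the values of variegated and stunted plants was not tested. RNA of whole shoots was measured, so fewer cells of a type and less RNA per cell cannot be told apart.

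Cpn60beta2 was lowest in wild type and highest in stunted plants. Its level was 7.66, 7.99 and 7.93 on arrays W1, W2 and W3, 8.86, 9.08 and 8.71 on the variegated arrays, and 9.24, 9.38 and 9.21 on the stunted arrays. The groups did not overlap, and the distance between neighbouring groups was 0.72 from wild type to variegated and 0.13 from variegated to stunted. Of all probe sets, 9.36% were higher without overlap in variegated and 11.9% in stunted plants than in wild type, and 8.11% in stunted than in variegated plants. The group means were 7.86 ± 0.18 in wild type, 8.88 ± 0.18 in variegated and 9.28 ± 0.09 in stunted plants (mean ± SD, n = 3). The variegated mean was thus 1.02 above wild type (SE 0.12, 2.03-fold) and the stunted mean 1.42 above it (SE 0.12, 2.67-fold), while stunted lay 0.39 above variegated (SE 0.12, 1.31-fold). Of the 22746 probe sets tested, 43 (0.189%) had a larger positive difference in variegated plants and 72 (0.317%) in stunted plants. The gene was chosen with these differences in view, so such ranks are favoured by the choice and are no test.

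CLPP4 differed little over the 9 arrays. Its level was 9.20, 9.27 and 9.24 on arrays W1, W2 and W3, 9.28, 9.32 and 9.45 on the variegated arrays, and 9.28, 9.37 and 9.23 on the stunted arrays. The variegated arrays all lay above the wild-type arrays, by 0.01 at the closest, as for 9.36% of all probe sets. The stunted arrays overlapped with both other groups. The means were 9.24 ± 0.04 in wild type, 9.29 ± 0.07 in stunted and 9.35 ± 0.09 in variegated plants (n = 3). The difference from wild type was 0.12 in variegated (SE 0.07, 1.08-fold) and 0.06 in stunted plants (SE 0.07, 1.04-fold), and stunted minus variegated was -0.06 (SE 0.07). Neither stunted and wild type nor stunted and variegated plants were further apart than the spread of their arrays. Over all 9 arrays CLPP4 spanned 0.26. Of the 419 probe sets whose mean lay within 0.5 of that of CLPP4, 30 (7.16%) spanned less.

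CCS followed the order of Cpn60beta2. Its level was 6.77, 6.65 and 6.81 on arrays W1, W2 and W3, 7.81, 7.65 and 7.51 on the variegated arrays, and 7.97, 8.34 and 8.43 on the stunted arrays. The 3 groups were again separate, by 0.70 between wild type and variegated and by 0.16 between variegated and stunted. The means were 6.74 ± 0.08, 7.65 ± 0.15 and 8.25 ± 0.24 (n = 3), and the stunted group had the widest spread. Variegated plants were 0.91 above wild type (SE 0.13, 1.88-fold), stunted plants 1.50 above it (SE 0.13, 2.84-fold) and stunted plants 0.59 above variegated plants (SE 0.13, 1.51-fold). A larger positive difference was found for 64 probe sets (0.281%) in variegated and 61 (0.268%) in stunted plants. These ranks too follow in part from the choice of the gene. Of the 3 genes, Cpn60beta2 and CCS thus had the order wild type, variegated, stunted, and CLPP4 did not. Both comparisons with wild type use the same 3 wild-type arrays.

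**Figure D1:**
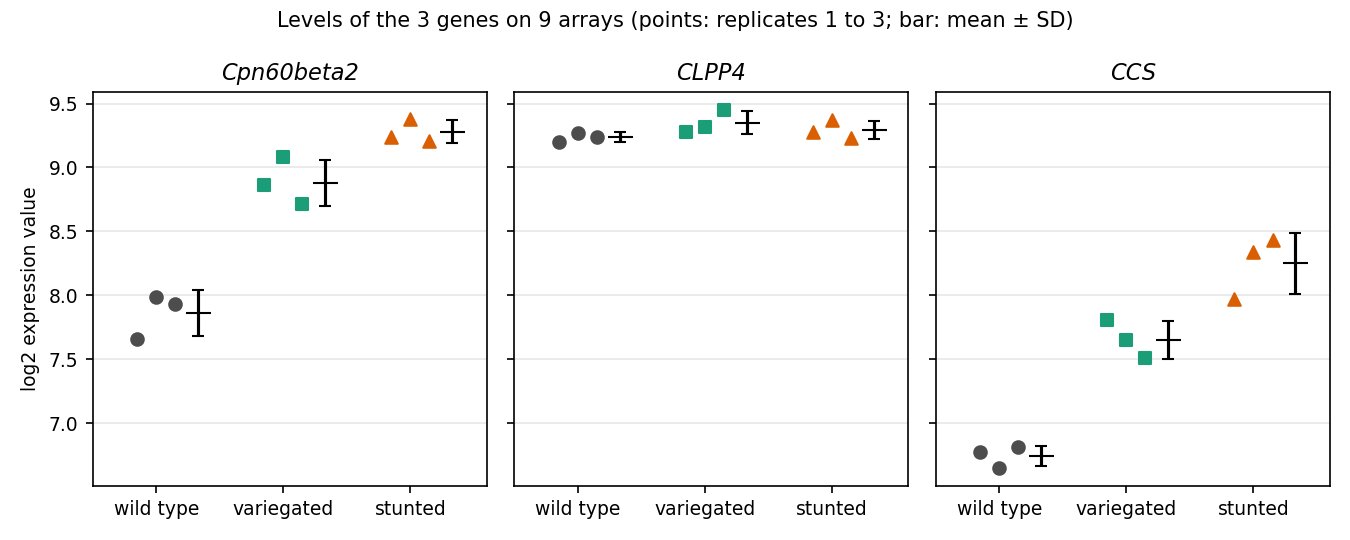
Log2 expression value (vertical axis) of Cpn60beta2, CLPP4 and CCS on each of the 9 arrays, with 1 point per replicate and a bar for the group's mean ± SD (n = 3). Cpn60beta2 and CCS step up from wild type to variegated to stunted plants, while CLPP4 stays between 9.20 and 9.45; heights of different genes come from different probe sets and are not comparable.

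Between groups Cpn60beta2 and CCS were ordered alike, but within groups they were not. With the group means taken out, the deviations of the 2 genes correlated at r = 0.10 over the 9 arrays, those of Cpn60beta2 and CLPP4 at 0.07, and those of CLPP4 and CCS at -0.39. These are descriptions of 9 arrays that share 3 group means. In the variegated group, for example, V2 was the highest for Cpn60beta2 and V1 for CCS.

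**Figure D2:**
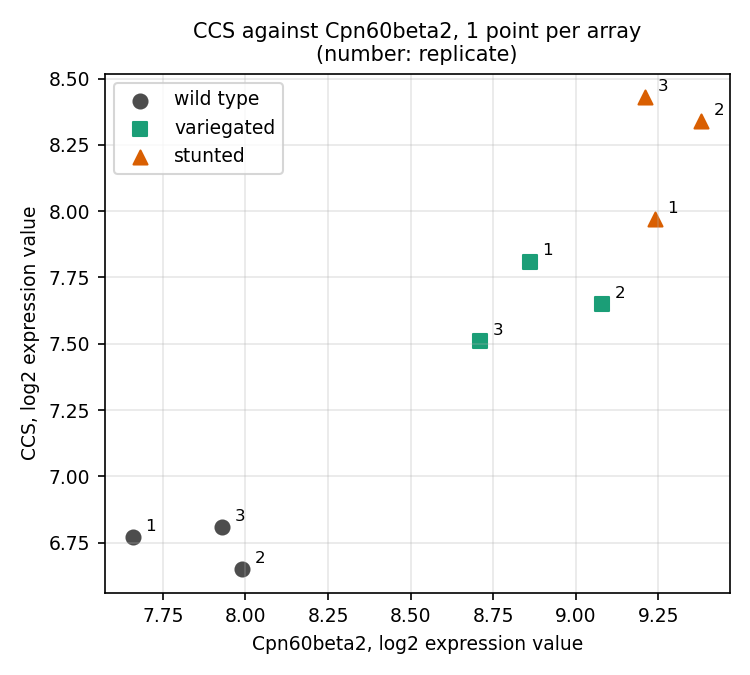
CCS (vertical axis) against Cpn60beta2 (horizontal axis), both as log2 expression values, with 1 point per array marked by group and replicate number. The wild-type arrays lie at the lower left (CCS 6.65 to 6.81), the stunted arrays at the upper right (CCS 7.97 to 8.43) and the variegated arrays between them, with no common order of replicates within groups.

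Signs of RNA quality and ribosomal RNA also differed between arrays. The actin control signal at the 3' end minus that at the 5' end was 1.26 ± 0.26 in wild type, 1.15 ± 0.27 in variegated and 1.65 ± 0.27 in stunted plants (n = 3; exact permutation p = 0.5 for variegated and 0.2 for stunted against wild type, two-sided, where 0.1 is the smallest possible). The same difference for the GAPDH control was 0.63 ± 0.20, 0.46 ± 0.10 and 0.49 ± 0.16 (n = 3; exact permutation p = 0.3 and 0.5), so that the mean was higher in stunted plants than in wild type for actin and lower for GAPDH. The 25S rRNA control was at 4.96 ± 1.28, 6.04 ± 2.28 and 7.36 ± 2.48 (exact permutation p = 0.5 and 0.2). As a covariate, the actin signal means its 3' minus 5' difference here and below. With the actin or the 25S signal as a covariate, or under 6 other settings, Cpn60beta2 kept its difference from wild type. That difference stayed at 1.01 to 1.04 in variegated and 1.39 to 1.47 in stunted plants. For CCS it stayed at 0.88 to 0.93 and 1.44 to 1.50. Leaving out any 1 array gave 0.92 to 1.11 and 1.32 to 1.48 for Cpn60beta2, and 0.84 to 0.99 and 1.41 to 1.64 for CCS. For CLPP4 no setting or omission gave a difference from wild type above 0.15.

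**Figure D3:**
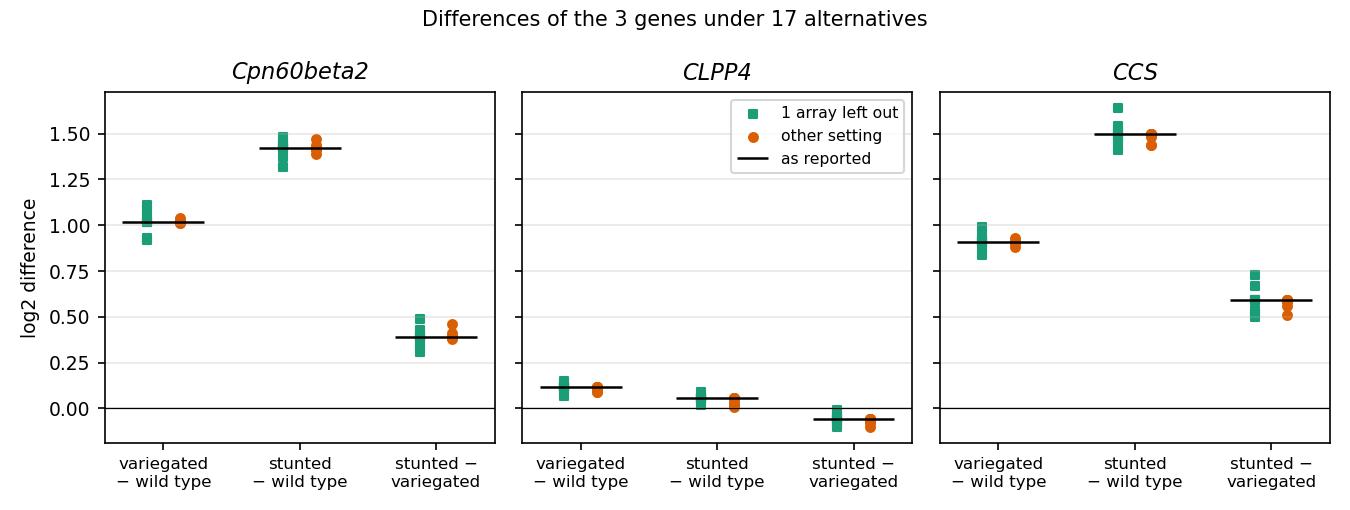
Log2 difference (vertical axis) of each gene in the 3 comparisons, as reported (line), with 1 array left out (squares) and under 8 other settings (circles). For Cpn60beta2 and CCS every value lies above 0, and for CLPP4 every value lies between -0.10 and 0.15.

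Genes that work with the 3 were taken from 8 lists: the chaperonin, other plastid heat shock proteins with their co-chaperones, the Clp protease, other plastid proteases, superoxide dismutases, copper handling, peroxide removal and the mitochondrial counterparts. Of 94 genes, 20 were measured under a single gene name. None of the 7 superoxide dismutase genes, the clients of CCS among them, was analysed here. Several genes carry only a locus code in the platform and reference gene tables. They were placed on a list by that code and are given without a role.

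In variegated plants none of the 20 passed (limma, Benjamini-Hochberg adjusted p under 0.05), against 0.444% of all probe sets, and 5 (3 higher, 2 lower) had an unadjusted p under 0.05, as did 11.6% of all probe sets. Their median difference was 0.11, against 0.01 over all probe sets. The largest was that of clpP, the plastid-encoded Clp subunit, at 0.94 (SE 0.23, limma adjusted p = 0.126). In stunted plants 7 of the 20 (35%) passed, against 9.66% of all probe sets. Of these 6 were higher (4.91% of all probe sets) and 1 lower (4.75%), and the median difference was 0.33 against 0.01. There were 4 calls without W2, without S2 and without S3. The 3 chosen genes are not in these counts.

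Of the other chaperonin genes 3 of 8 were measured, and 1 rose. Cpn60beta4, a minor beta subunit, was at 6.03, 6.03 and 5.89 in wild type, 6.26, 6.09 and 6.20 in variegated and 6.60, 6.77 and 6.95 in stunted plants. Its stunted arrays lay above all others, where 11.9% of all probe sets lay above wild type and 8.11% above variegated plants without overlap. It rose by 0.79 in stunted plants (SE 0.10, limma adjusted p = 0.0018), and this call held in each of the 9 single-array omissions. In variegated plants its difference was 0.20 (SE 0.10, limma adjusted p = 0.485). Stunted plants were 0.59 above variegated plants (SE 0.10, limma adjusted p = 0.0237), a call lost without V1, V2, V3 or S2 (adjusted p up to 0.0908). Cpn60beta3, another beta subunit, went the other way without passing, at -0.56 (SE 0.19, limma adjusted p = 0.284) and -0.43 (SE 0.19, limma adjusted p = 0.227), and its groups overlapped. AT3G60210 had differences of 0.17 and 0.08. Cpn60beta3 was dim, at 3.46 to 4.43 against array medians of 3.37 to 3.43. A difference between the beta genes was not tested. Of 7 genes of plastid heat shock proteins and their co-chaperones only AT1G36390 was measured, with differences of 0.08 and 0.44 that did not pass.

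Of 15 other Clp genes 6 were measured, and 3 rose in stunted plants (4.91% of all probe sets did) while the rest did not pass. The median difference was 0.42, against 0.06 for CLPP4. The plastid gene clpP was at 10.87, 10.40 and 10.08 in wild type, 11.02, 11.72 and 11.42 in variegated and 11.61, 11.22 and 11.64 in stunted plants. Variegated and stunted arrays overlapped with each other and lay above wild type, as for 9.36% of all probe sets in variegated and 11.9% in stunted plants. It rose by 1.04 in stunted plants (SE 0.23, limma adjusted p = 0.0215), but not without W2, W3 or S3 (adjusted p up to 0.0719). AT1G68660 rose by 0.44 (SE 0.07, limma adjusted p = 0.00611), from 8.80, 8.87 and 8.94 to 9.23, 9.31 and 9.39, and kept its call in each omission. AT1G09130 rose by 0.41 (SE 0.09, limma adjusted p = 0.02) and lost the call without W1, W2, S2 or S3 (adjusted p up to 0.0784). The others, AT4G25370, AT4G12060 and AT2G03390, had 0.36, 0.10 and 0.43. AT2G03390 has a second, dimmer probe set, with a difference of 0.21. In variegated plants the 6 differences ran from -0.01 to 0.94.

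SPPA, a protease of the thylakoid that is induced by light, was the 1 measured of 15 other plastid protease genes on the list. It was at 6.73, 6.84 and 7.13 in wild type, 7.10, 7.05 and 7.13 in variegated and 7.35, 7.89 and 8.03 in stunted plants, where it rose by 0.86 (SE 0.17, limma adjusted p = 0.0134). The stunted arrays lay above all others, where 11.9% of all probe sets lay above wild type and 8.11% above variegated plants without overlap. The call was lost without W1, W2 or S2 (adjusted p up to 0.0575). Of 16 further plastid protease genes, added by locus code once the gene table was open, 6 were measured and 3 rose in stunted plants, against 4.91% of all probe sets. SPP (AT5G42390), the stromal processing peptidase that removes the import signals of plastid proteins, rose by 0.80 (SE 0.18, limma adjusted p = 0.0211). AT5G46390 rose by 0.68 (SE 0.15, limma adjusted p = 0.0204) and AT3G02450 by 0.63 (SE 0.12, limma adjusted p = 0.0144). None of the 6 passed in variegated plants, where 2 had an unadjusted p under 0.05 (11.6% of all probe sets). These 3 calls were lost without S2 (adjusted p up to 0.0847). SPP and AT5G46390 also lost theirs without W1 or S3, and AT5G46390 without W2. Of 9 added folding genes 2 were measured and neither passed: AT5G55220 had 0.62 (SE 0.17, limma adjusted p = 0.0532) and AT3G47650 had 0.30 (SE 0.08, limma adjusted p = 0.0569) in stunted plants.

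**Figure D4:**
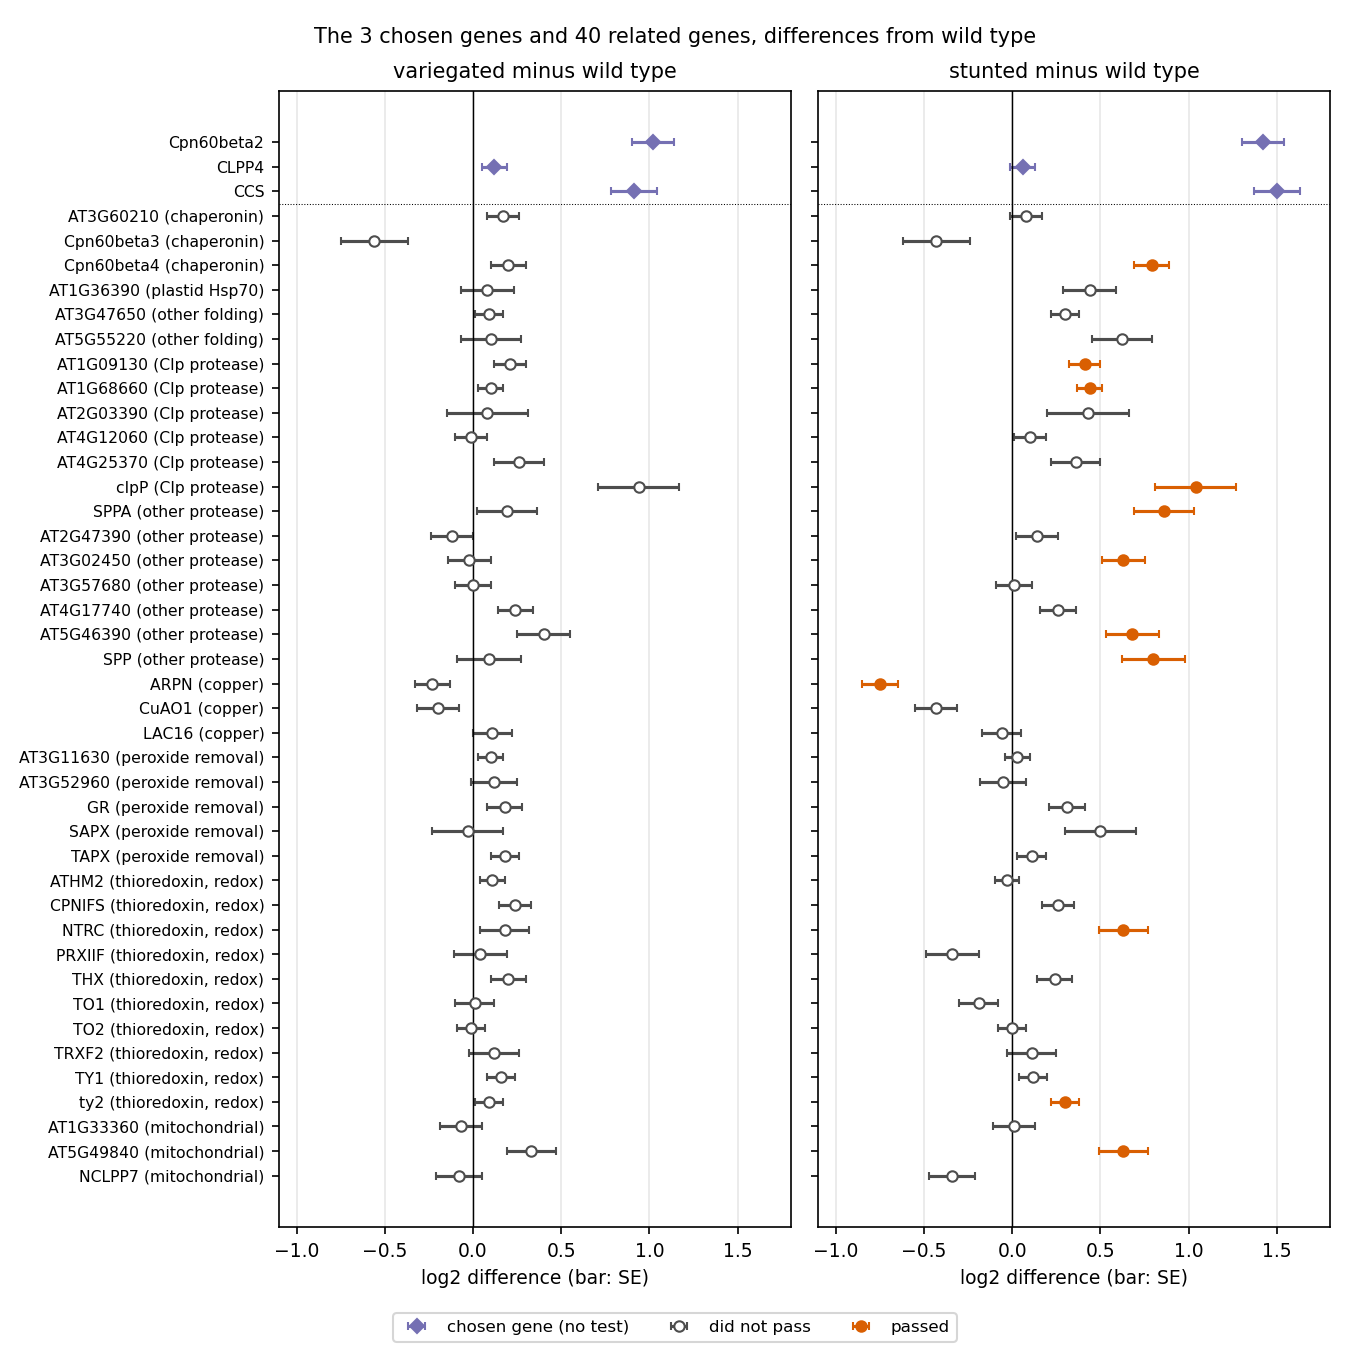
Log2 difference from wild type (horizontal axes, bars are SE) of the 3 chosen genes and 40 related genes, with variegated plants on the left and stunted plants on the right; filled circles passed the limma test. Among the related genes no circle is filled for variegated plants. Cpn60beta2 and CCS lie to the right of every related gene for stunted plants, which follows in part from their choice with these differences in view.

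Apart from CCS, the copper genes measured were for copper proteins of the apoplast, and none passed as higher in either comparison with wild type. ARPN, the plantacyanin, a copper protein of the cell wall, was the 1 measured of 16 copper genes on the list. It was at 5.42, 5.28 and 5.60 in wild type, 5.18, 5.15 and 5.27 in variegated and 4.80, 4.61 and 4.63 in stunted plants. It fell by 0.75 in stunted plants (SE 0.10, limma adjusted p = 0.00205), in each of the 9 omissions, and had -0.23 in variegated plants (SE 0.10, limma adjusted p = 0.389). Stunted plants were below variegated plants by -0.52 (SE 0.10, limma adjusted p = 0.0332), a call lost without V1, V2, V3, S2 or S3 (adjusted p up to 0.124). The stunted arrays lay below the variegated arrays, as for 9.55% of all probe sets, and the variegated arrays below wild type, as for 7.43%, while 11.2% were lower without overlap in stunted plants than in wild type. The added copper enzyme genes CuAO1, an amine oxidase, and LAC16, a laccase, had -0.43 (SE 0.12, limma adjusted p = 0.0551) and -0.06 in stunted plants. In variegated plants they had -0.2 and 0.11, and neither passed.

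Of 15 genes of peroxide removal 5 were measured and none passed in any comparison. In limma's test 2 had an unadjusted p under 0.05 in stunted plants, as did 22.5% of all probe sets, and none in variegated plants, against 11.6%. SAPX, the stromal ascorbate peroxidase, had a difference of 0.50 in stunted plants (SE 0.20, limma adjusted p = 0.165), with values of 7.71, 7.63 and 7.27 against 7.07, 7.27 and 6.77. GR, a glutathione reductase, had 0.31 (SE 0.10, limma adjusted p = 0.0816). TAPX, the thylakoid ascorbate peroxidase, had 0.18 in variegated and 0.11 in stunted plants. Among 10 added genes of thioredoxins and related redox proteins, 2 rose in stunted plants, against 4.91% of all probe sets. NTRC, the reductase that passes electrons from NADPH to 2-Cys peroxiredoxins, went from 7.42, 7.52 and 7.55 in wild type to 7.81, 8.11 and 8.43, a rise of 0.63 (SE 0.14, limma adjusted p = 0.0206). The call was lost without W1, W2 or S2 (adjusted p up to 0.0693). The thioredoxin gene ty2 rose by 0.30 (SE 0.08, limma adjusted p = 0.0393) and lost its call in 7 of the 9 omissions, all but those of V1 and V2 (adjusted p up to 0.123). Its call was also lost with an intensity trend, with quantile normalization and without the dimmest 30% of probe sets (limma adjusted p of 0.0501 to 0.0772).

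Of 11 genes for mitochondrial counterparts of these proteins, 3 were measured. AT5G49840 rose by 0.63 in stunted plants (SE 0.14, limma adjusted p = 0.0197), a call lost without S2 or S3 (adjusted p up to 0.0669). NCLPP7, the Clp subunit of mitochondria, had -0.34 (SE 0.13, limma adjusted p = 0.154), and AT1G33360 was dim at about 3 on every array. With the actin signal as a covariate, clpP, AT1G09130, SPPA, AT5G49840, SPP, AT5G46390, AT3G02450, NTRC and ty2 did not pass in stunted plants (adjusted p of 0.0598 to 0.148), while Cpn60beta4, AT1G68660, ARPN and SAPX did (SAPX at 0.85, limma adjusted p = 0.0204). Not every related gene was followed by name under each setting, and 5 related genes passed in stunted plants with the actin signal. With the 25S signal SAPX passed in stunted plants at 0.73 (limma adjusted p = 0.0487). With that covariate AT1G09130, AT5G49840, NTRC and ty2 lost their calls in stunted plants (limma adjusted p of 0.0595 to 0.0919). In a fit to stunted and wild-type arrays alone, SPPA, SPP, AT5G46390, AT5G49840, NTRC and ty2 lost theirs (limma adjusted p of 0.0552 to 0.0681).

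Between stunted and variegated plants, 2 of the 20 related genes passed, Cpn60beta4 higher and ARPN lower, against 1.74% of all probe sets (0.87% higher and 0.87% lower). None passed without V1, V2, V3 or S2, 1 passed without S3 and 4 passed without S1. Of the 20 added genes 1 passed, AT3G02450 at 0.64 (SE 0.12, limma adjusted p = 0.0408). Its call was lost without W2, W3, V1, V2, V3, S2 or S3 (adjusted p up to 0.168).

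The genes whose pattern was most like each of the 3 were taken from the other genes with 1 name by Pearson's r over the 9 arrays. For Cpn60beta2 they were AT4G09670 (r = 0.982), AT2G04795 (r = 0.966) and AT1G53120 (r = 0.965), and 10 genes had r above 0.95. For CCS they were AT4G26370 (r = 0.989), AT2G04795 (r = 0.984) and AT3G49320 (r = 0.982), with 18 genes above 0.95. AT2G04795 was near both. It was at 4.08, 4.10 and 4.16 in wild type, 4.81, 4.72 and 4.72 in variegated and 5.03, 5.02 and 5.17 in stunted plants. These were 3 separate groups, which follows in part from the choice by r. For CLPP4 the highest were AT1G54420 (r = 0.919), AT3G45880 (r = 0.919) and AT1G74790 (r = 0.917). Their group means lay between 2.39 and 4.36, their differences did not pass, and no gene reached 0.95. AT1G54420 and AT3G45880 were dim, at 2.37 to 2.92 against array medians of 3.37 to 3.43. With the group means taken out, r was -0.08 to 0.70 for the 3 genes of Cpn60beta2, 0.66 to 0.87 for those of CCS and 0.88 to 0.92 for those of CLPP4. These r values are descriptions over 9 arrays.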

How the data were processed

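Total RNA of 9 samples was hybridised to Affymetrix arrays. The deposited values are log2 expression values, 1 per probe set and array. RMA and affy are named in the submitters' processing notes. Not given in the sources used here are versions, the background step and a genome build. Differences of dim probe sets may therefore be compressed, and no positions are printed. RMA gives arrays nearly equal distributions, which hides a shift of most transcripts. Arrays have no read depth, and their number limits the precision.

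After 64 control probe sets were set aside, 22746 were fitted with limma 3.58.1 (R 4.3.3), with 1 mean per group over all 9 arrays, moderated standard errors, 3 two-sided contrasts and Benjamini-Hochberg adjustment within each (threshold 0.05). The procedure was tested on simulated arrays. Of the tested probe sets, 13513 (59.4%) had 1 gene in the platform table, 503 had several and 8730 were not listed. The brightest probe set stood for a gene. Names were matched by gene number to a reference table of TAIR10.1. The plastid clpP was matched by symbol.

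The 3 genes and all lists were chosen with earlier results of these data known, and 4 further lists were added once the gene table was open. From each of the 8 lists the text names up to 6 genes that passed in any comparison, or the 2 with the smallest p, and for each chosen gene the 3 with the highest r. Genes outside this rule were named after their values were seen. Alternatives were a block for the replicate number, a trend of the variance with intensity, a fit to only the compared groups, median centring, quantile normalization, omission of the dimmest 30% of probe sets, the actin or the 25S signal as a covariate, and omission of each array in turn.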

Additional observations from a re-analysis of the deposited data

How the results depend on the processing

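The differences of Cpn60beta2, CLPP4 and CCS moved by less than 1 SD between replicates under all 17 alternatives. Leaving out 1 array gave -0.10 to -0.01 for CLPP4, 0.31 to 0.49 for Cpn60beta2 and 0.50 to 0.73 for CCS in stunted minus variegated plants. Counts moved more, and the cause was not tested. Of the 20 related genes, 7 passed in stunted plants (4 to 8 over the omissions, 11 with the replicate number as a block) and 2 between stunted and variegated plants (0 to 4 over the omissions, 4 with the block, 1 with an intensity trend, and 0 with the actin covariate or with the 2 groups alone). None passed in variegated plants under any alternative. Of all probe sets, 101 passed in variegated plants (10 to 206 over the omissions, 191 with the block, 186 with the actin and 155 with the 25S covariate, 206 with the 2 groups alone). In stunted plants 2197 passed (1241 to 2955 over the omissions, 2889 with the block, 1412 with actin, 1321 with the 2 groups alone). Between the RNAi groups 396 passed (48 to 1404 over the omissions, 940 with the block, 79 with actin, 133 with the 2 groups alone). Of the 20 added genes, 5 passed in stunted plants and 0 to 6 over the omissions, with 0 under the actin covariate. Deviations of same-numbered arrays from their group means correlated at 0.10 to 0.30 for replicate 1, -0.01 to 0.14 for replicate 2 and 0.23 to 0.30 for replicate 3, and 5 of 9 arrays correlated best with their own number in both other groups. Replicate 3 also had the largest actin 3' minus 5' difference in each group (1.56, 1.45 and 1.95). The labels tie no number to a shared batch and not every pair exceeded 0.1, so the numbers were not taken as pairs. Among the genes followed by name, SAPX (limma adjusted p = 0.018) and AT1G36390 (0.0425) also passed in stunted plants with the block. Between stunted and variegated plants SAPX (0.0332), SPP (0.0174) and SPPA (0.0341) did. Not every related gene was followed by name. No result that passed changed its direction.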

Other observations

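The nearest genes on the chromosome, 5 on each side of each of the 3 genes in the reference table, were looked up by order. Of these 30 neighbours 11 had a probe set with 1 gene name. Their differences ran from -0.31 to 0.23 in variegated and from -0.36 to 0.32 in stunted plants, with medians of 0.03 and 0.04. In stunted plants 1 of the 11 passed, against 9.66% of all probe sets. It was AT3G13440, 4 genes from Cpn60beta2, with a difference of 0.32 (SE 0.08, limma adjusted p = 0.0372), and its call was lost in 7 of the 9 single-array omissions (adjusted p up to 0.12). None passed in variegated plants. AT3G13480, next to Cpn60beta2, had 0.03 in variegated and 0.24 in stunted plants (SE 0.13). The nearest measured neighbour of CCS, AT1G12500, had 0.11 and 0.04 (SE 0.18).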
